A study of Bos taurus with 8 samples.

Results

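The secretory trafficking machinery carries newly made proteins from the ribosome to the cell surface, and its transcripts were followed here in the mammary gland of dairy cows. Members were chosen by name, from the prefixes SEC, COPA, COPB, COPE, COPG, COPZ, TRAPPC, TMED, SSR, SRP and RAB. A gene name on the array counted if a digit directly followed the prefix or the name ended there. For SRP, digits alone could follow, and 1 further RAB name was left out. This gave 128 of 25766 gene names, held by 263 probes, and each name was represented by its brightest probe. The names fell into 18 for entry into the endoplasmic reticulum (ER), 41 for coats, cargo receptors and tethers, 62 RAB names and 7 other names beginning with SEC. The last 7 are no single family: SEC1 is a fucosyltransferase name and the SEC14L genes encode lipid-binding proteins, so that they share a prefix and not a pathway.

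RNA came from 1 part of the udder in 8 Holstein Friesian cows, a dairy breed, which the series describes as healthy and lactating. The 4 cows of the high-yield group gave 11097 kg of milk per lactation on average and the 4 of the low-yield group 6956 kg. Each array set a cow of one group against a cow of the other at equal lactation number, labelled with the dyes Cy3 and Cy5, and a second array exchanged the dyes, so that 4 cow pairs gave 8 arrays. Pairs 1 and 2 were in lactation II on one slide and pairs 3 and 4 in lactation IV on another, so that slide and lactation cannot be told apart. The cows' ages and stages of lactation were not given in the sources used here.

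A secreted protein such as a casein is recognised by the signal recognition particle (SRP) while it is being made and is threaded through the SEC61 channel into the ER. It leaves in vesicles coated with COPII, is returned or passed on within the Golgi by COPI, and is guided by TMED cargo receptors and TRAPP tethers. RAB proteins are small GTPases held on membranes by a lipid tail, each marking its own compartment, from RAB1 between ER and Golgi to RAB5 and RAB7 on endosomes. The lactating alveolar cell of the udder is among the most active secretory cells known.

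Several probes of members on which the results turn are shown so that a measured stretch of each transcript can be seen. Those of RAB1A and SEC22B are the brightest of their names and gave the values reported below. Those of RAB2A, SEC24D and COPB2 are not the brightest, and their own ratios are given beside the results. Positions are those given for the probes on build HGSC Btau_3.1, without exon annotation of that build. Each probe has 60 bases. In the brightest RAB1A probe, at chr11:65259319-65259378 on the minus strand, capitals mark the codons for cysteine, cysteine and stop, the end at which RAB1A receives its lipid tail. These letters, TGCTGCTAA, occurred in 24 of the 43653 probes (0.055%), or in 35 (0.0802%) when both strands were searched. In the RAB2A probe, placed on chr14:26064823-26070933 on the plus strand, capitals mark codons of the motif that binds guanine in small GTPases, searched with these letters and any 3 bases between AATAAA and GAT. It was held by 54 probes (0.124%), or by 67 (0.153%) on both strands. The probes of SEC24D (chr6:7449834-7449893, plus strand), SEC22B (chr3:25030080-25030139, plus strand) and COPB2 (no position given) stand for the coats and the SNARE proteins of ER vesicles.
RAB1A, brightest probe: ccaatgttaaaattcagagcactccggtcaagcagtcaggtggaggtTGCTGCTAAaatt
RAB2A: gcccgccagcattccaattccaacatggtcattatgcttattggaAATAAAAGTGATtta
SEC24D: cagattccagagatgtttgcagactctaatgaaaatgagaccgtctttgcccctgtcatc
SEC22B: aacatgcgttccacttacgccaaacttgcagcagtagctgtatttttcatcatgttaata
COPB2: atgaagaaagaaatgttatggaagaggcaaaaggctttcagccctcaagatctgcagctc

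Before the results, the tissue was checked against its markers. Transcripts of 7 milk proteins were abundant in 7 of the cows, while the low-yield cow of pair 1 was the lowest of 8 for 7 of 7. That cow had a summed level of the list of 15.47 (log2 intensity), the other low-yield cows 20.47 to 20.73 and the high-yield cows 19.5 to 22.25. Its LALBA, the milk protein that drives lactose synthesis, was at 9.75, with 17.92 to 18.05 in the remaining low-yield cows. Its luminal epithelial markers summed to 16.96, with 15.96 to 16.24 in those cows, with KRT8, KRT18, KRT7, EPCAM and CDH1 the highest of 8 there and ELF5, a regulator of alveolar cells, the lowest. Its adipocyte markers summed to 11.48 against 14.4 to 15.13, a sum carried by FABP4 (11.17 against 14.29 to 15.01, both against the remaining low-yield cows). Whether the sampled part of this cow's udder was secreting milk is not given in the sources used here, and what its state contributes to a ratio was not tested. Group medians, the main counts for yield and the leading genes are therefore also given without pair 1. In bulk tissue, fewer cells of a type and less RNA per cell cannot be told apart.

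Of the 128 names, 117 had a probe well above background in at least 6 of 8 channels of one yield group and were tested. The other 11 were RAB11FIP5, RAB19, RAB36, RAB38, RAB39, RAB3A, RAB3B, RAB9B, TRAPPC10, SEC14L4 and SEC14L5. The ratio used throughout is the log2 ratio of the high-yield over the low-yield cow, 1 value per pair, with the SD over the 4 pairs. In limma's test of the mean of 4 pairs against 0, 0 of 117 members passed an adjusted p of 0.05, the same as the 0% of all 18116 gene names tested. The lowest adjusted p of a member was 0.774.

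Without adjustment, 9 members had limma p-values under 0.05 on the low side of 0 and 4 on the high side, which is 7.69% and 3.42% of the members against 2.82% and 2.6% of all gene names. The lower ones were SRP9, RAB14, RAB1A, RAB5A, COPB2, SEC24A, SEC24D, SEC31A and TRAPPC8, and the higher ones RAB11FIP1, RAB13, RAB39B and SEC22C. The number of such members, 13 of 117 in all, was 31 without pair 1 (24 lower and 7 higher, against 6.25% and 5.57% of all gene names). It was 3 without pair 2, 5 without pair 3 and 6 without pair 4. Of all 18116 gene names, 982 had such a p with 4 pairs, 443 without pair 2, 606 without pair 3 and 683 without pair 4. Ratios lay below 0 in 4 of 4 pairs for 17 members, 14.5% of those tested, against 8.19% of all gene names. They lay above 0 in 4 of 4 pairs for 10 members, 8.55% against 9.34%. The 17 were SEC61A2, SRP9, COPB2, SEC23A, SEC23B, SEC31A, TMED10, TRAPPC8, SEC23IP and the RAB genes RAB14, RAB1A, RAB21, RAB28, RAB33B, RAB5A, RAB5B and RAB7A. The 10 were SEC22C, TMED8, TRAPPC9, SEC1, SEC14L3, RAB11FIP1, RAB3IL1, RAB13, RAB39B and RAB42. TMED8 was well above background in 14 of 16 channels, SEC14L3 and RAB42 in 13, and RAB5B of the 17 in 11. With all channels required to be above background, the counts were 16 below and 7 above, where all gene names had 8.3% and 8.62%. When each array was centred on its median in place of loess, the counts were 26 and 6, where all gene names had 10% and 5.69%. Without pair 1, members below 0 in the other 3 pairs numbered 47 and those above 0 numbered 18, where all gene names had 17.7% and 21.5%. The mean ratio lay below 0 for 69 members, 59% against 46.9% of all gene names, and above 0 for 48 members, against 53.1%.

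The 3 groups of the machinery are described by their medians, between which no difference was tested. Over 18 ER entry genes the median ratio was -0.17, with pair medians of 0.52, -0.17, -0.70 and -0.58. Over 40 coat, receptor and tether genes it was -0.15, with 0.14, -0.02, -0.45 and -0.32. Over 54 RAB genes it was 0.05, close to the 0.02 of all gene names, and its pair medians stayed between -0.05 and 0.07. The 54 hold 46 RAB GTPases, with a median of -0.0067, and 8 effectors or regulators named after a RAB, with 0.22. ER entry genes thus stood above 0 in pair 1 and below 0 in the other pairs, whereas the RAB median stayed near 0 in each. Without pair 1 the medians were -0.49, -0.23 and 0.06, and means lay below 0 for 15 of 18, 28 of 40 and 25 of 54 genes. When the 4 high-yield cows were set against the low-yield cows of pairs 2, 3 and 4, they were -0.28, -0.17 and 0.05. Median centring moved the median of all gene names to -0.14, and relative to it the groups stood at -0.31, -0.29 and -0.011, against -0.19, -0.17 and 0.03 with loess. The ER entry median also moved with the dyes, at -0.40 on the arrays with the high-yield cow in Cy5 and -0.089 on those with it in Cy3.

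**Figure D1:**
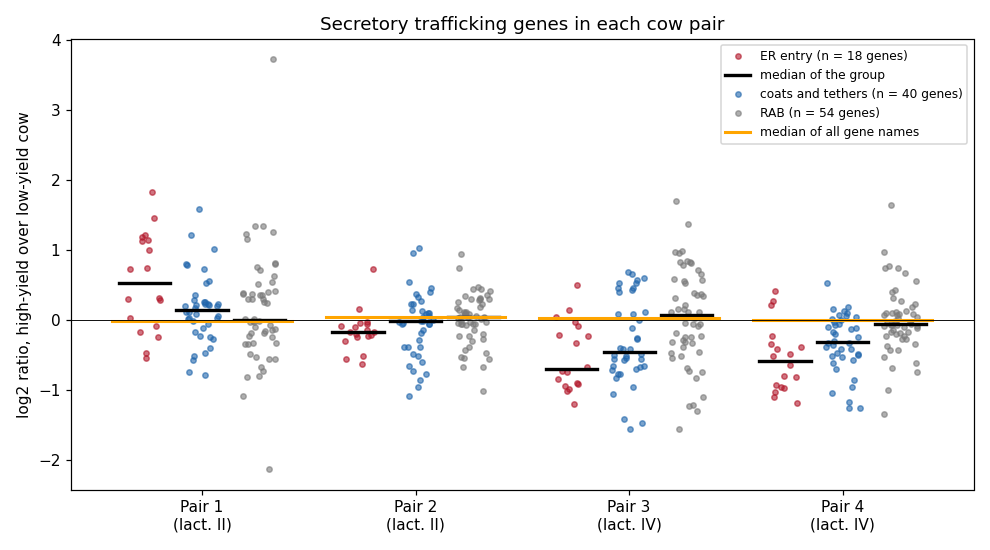
Log2 ratio of the high-yield to the low-yield cow (vertical axis) for each tested gene in each of the 4 pairs, coloured by group; black bars are group medians and orange bars the median of all gene names. The ER entry median was 0.52 in pair 1 and -0.70 and -0.58 in pairs 3 and 4, while the RAB medians stayed between -0.05 and 0.07.

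A split also appears in some counts of genes, but not in that of ratios below 0 in 4 of 4 pairs. That count held 2 of 18 ER entry genes (11.1%), 6 of 40 coat and tether genes (15%) and 8 of 54 RAB genes (14.8%). Among all gene names it was 8.19%. In pairs 2, 3 and 4 alike, the ratio lay below 0 for 47 members (40.2%, against 17.7% of all gene names), among them 13 of 18 ER entry genes, 19 of 40 coat and tether genes and 14 of 54 RAB genes. In pair 1, 71 members lay above 0 (60.7%, against 48.4%), among them 13 of 18 ER entry genes. The milk protein genes had the same arrangement of signs, with ratios above 0 for 7 of 7 in pair 1 (median 7.11) and below 0 for 6 of 7 in pairs 2, 3 and 4 alike. Summed luminal markers also stood apart in pairs 2 to 4, at 16.55 to 17.07 in high-yield and 15.96 to 16.24 in low-yield cows. KRT19 weighed heavily in these sums, at 15.82 to 16.42 and 14.18 to 14.72. Ratios lay above 0 for 3 of the 7 luminal genes in pair 2 (median -0.25), 6 in pair 3 and 5 in pair 4. ELF5 lay below 0 in each of these pairs. The part of either list in the ER entry values was not tested.

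Among SRP genes, 5 of 6 had a mean ratio below 0. SRP9 encodes the small subunit that, paired with SRP14, slows the ribosome while the chain is docked. It stood at 8.24, 8.32, 8.24 and 8.01 (log2 intensity) across the high-yield cows, in the order of pairs 1 to 4, and at 8.33, 8.95, 9.08 and 8.82 in the low-yield cows. The groups did not overlap, although the low-yield cow of pair 1 came within 0.09 of its partner. The mean log2 ratio was -0.59 ± 0.35 (SD, n = 4), with an adjusted p of 0.774 in limma's test, and without pair 1 it was -0.76 ± 0.11 (n = 3, adjusted p = 0.406). SRP14 had ratios of 0.74, -0.17, -0.94 and -0.81, and unlike SRP9 it lay above 0 in pair 1. SRP54, the subunit that binds the signal sequence, had 0.72, -0.20, -1.20 and -1.19 and a mean of -0.47 ± 0.92.

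In the translocation genes the contrast between pair 1 and the rest was widest, with a pair 1 median of 1.07 and medians of -0.19, -0.50 and -0.58 in the others. SEC61B, a small subunit of the channel, stood at 13.74, 13.22, 12.79 and 12.62 in the high-yield cows and 12.60, 13.47, 13.80 and 13.59 in the low-yield cows. The low-yield cow of pair 1 was the lowest of the 8 and the high-yield cow of pair 1 the second highest, so the groups overlapped. Its mean ratio was -0.28 ± 1.00 (adjusted p = 0.865). SEC61G, the other small subunit, followed with ratios of 1.00, -0.14, -0.98 and -0.93.

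SEC61A1, the channel-forming subunit, had ratios of 1.15, -0.17, -0.67 and -0.48 on its brightest probe. A second probe had 2.58, 0.45, -1.02 and -1.10, so that both gave a high value in pair 1 and values below 0 in lactation IV, but means of opposite sign. SEC62, which helps short precursors enter, had 1.18, -0.30, -0.92 and -0.52. SEC63, its partner that recruits the chaperone BiP, lay below 0 in pair 1, with -0.25, -0.52, 0.05 and -0.23. SEC61A2, a second form of the channel subunit, was below 0 in 4 of 4 pairs, at -0.48, -0.23, -0.09 and -0.41 (mean -0.30 ± 0.18), and its cow levels did not overlap between the yields.

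The SSR genes encode the translocon-associated complex that assists some chains into the channel. SSR3 stood at 13.02, 13.30, 12.53 and 12.04 in the high-yield cows and at 11.56, 13.15, 13.26 and 13.07 in the low-yield cows. The low-yield cow of pair 1 was again the lowest, and the ratios ran from 1.46 in pair 1 to -1.03 in pair 4. SSR1 had 0.29, -0.55, -0.90 and -0.64. SSR2 had the opposite signs, with -0.17, 0.72, 0.50 and 0.28 (mean 0.33 ± 0.38), and all 4 of its kept probes gave a mean above 0. SSR4 had 1.21, -0.10, -0.22 and -0.96. SSR1, SSR3 and SSR4 thus stood above 0 in pair 1 and below 0 in pairs 3 and 4, while SSR2 of the same complex did not. The signal peptidase gene SEC11C was the ER entry gene farthest above 0 in pair 1, at 1.83, with -0.21, -0.33 and -1.10 in the others, and its second probe had a mean of the other sign.

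**Figure D2:**
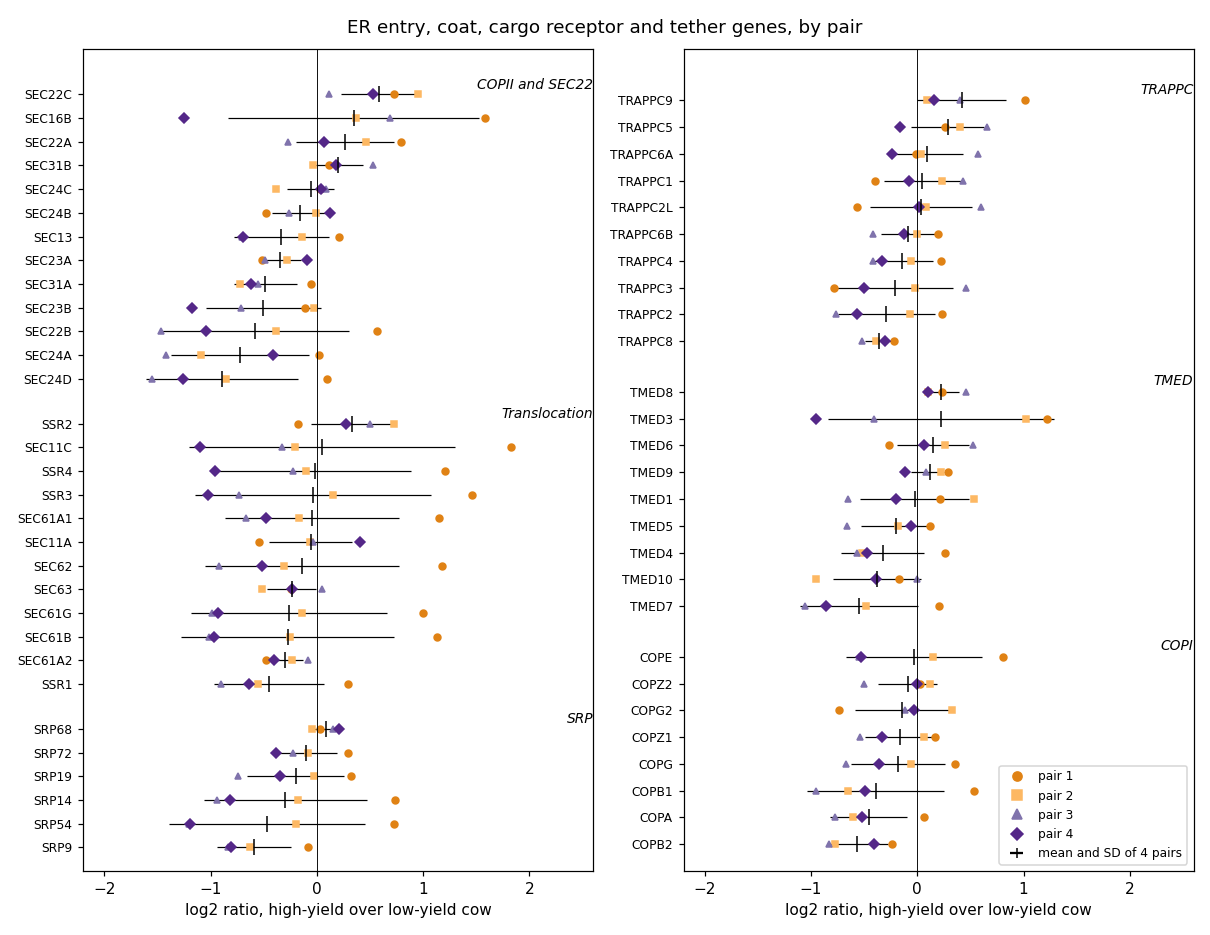
Log2 ratio of the high-yield to the low-yield cow (horizontal axis) for each ER entry, coat, cargo receptor and tether gene, with 1 symbol per pair and the mean and SD of 4 pairs in black. Translocation genes such as SEC61B spread from 1.13 in pair 1 to -1.02 in pair 3, while SRP9, COPB2 and TRAPPC8 kept to one side of 0.

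Among COPII and SEC22 genes 9 of 13 had a mean below 0, and the median was -0.33. SEC24D, a coat subunit that picks cargo, stood at 9.61, 9.89, 9.24 and 10.13 in the high-yield cows and at 9.51, 10.74, 10.79 and 11.38 in the low-yield cows. The low-yield cow of pair 1 lay among the high-yield cows and the other low-yield cows lay above them. The ratios were 0.09, -0.86, -1.55 and -1.26, with a mean of -0.89 ± 0.72, 1.86-fold lower in high-yield cows (limma, adjusted p = 0.774), and the probe printed above, its second, had 0.03, -0.32, -0.54 and -0.53. Without pair 1 the mean was -1.22 ± 0.35 (adjusted p = 0.406). SEC24A, chosen for mention after its values were seen, had 0.02, -1.09, -1.42 and -0.41, and all 5 of its kept probes had a mean below 0. SEC24B and SEC24C, the other cargo-selecting subunits, had means of -0.16 ± 0.27 and -0.06 ± 0.22.

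SEC31A, which with SEC13 forms the outer cage, had ratios of -0.05, -0.72, -0.55 and -0.62 (mean -0.49 ± 0.30, limma, adjusted p = 0.774). On the arrays with the high-yield cow in Cy3 alone the mean was 0.014. SEC13 had 0.21, -0.14, -0.71 and -0.70. SEC23A and SEC23B, the inner coat subunits that switch off the GTPase SAR1, were below 0 in 4 of 4 pairs. SEC23A had a mean of -0.34 ± 0.20 and SEC23B of -0.51 ± 0.54, the latter with -0.11 and -0.02 in lactation II and -0.72 and -1.17 in lactation IV. SEC22B, a SNARE of ER to Golgi vesicles, had 9.23 to 9.51 in the low-yield cows of pairs 2 to 4 and 7.76 in that of pair 1, and its ratios were 0.56, -0.38, -1.47 and -1.04. SEC22C, another protein of that name, had ratios above 0 in 4 of 4 pairs (0.73, 0.95, 0.12 and 0.53) and a mean of 0.58 ± 0.36 (limma, adjusted p = 0.774).

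All 8 COPI genes had a mean ratio below 0, from -0.56 to -0.03 (7 of 8 without pair 1), and 8 of 8 were below 0 in both pairs of lactation IV, where 29.8% of all gene names and 60 of 117 members were. COPB2, a coat subunit that binds retrieval signals, stood at 12.22, 12.20, 11.96 and 12.36 in the high-yield cows and at 12.46, 12.98, 12.79 and 12.77 in the low-yield cows. All 4 low-yield cows lay above all 4 high-yield cows, with the pair 2 values taken from 1 array alone (high-yield cow in Cy5). The mean log2 ratio was -0.56 ± 0.29, 1.48-fold lower in high-yield cows (limma, adjusted p = 0.774), and without pair 1 it was -0.67 ± 0.23 (adjusted p = 0.406). The probe printed above had -0.19, -0.37, -0.57 and -0.58. COPA, another subunit that reads retrieval signals, had 0.06, -0.61, -0.77 and -0.52, and COPB1 had 0.53, -0.66, -0.96 and -0.49. COPE had 0.80 and 0.15 in lactation II and -0.55 and -0.53 in lactation IV.

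**Figure D3:**
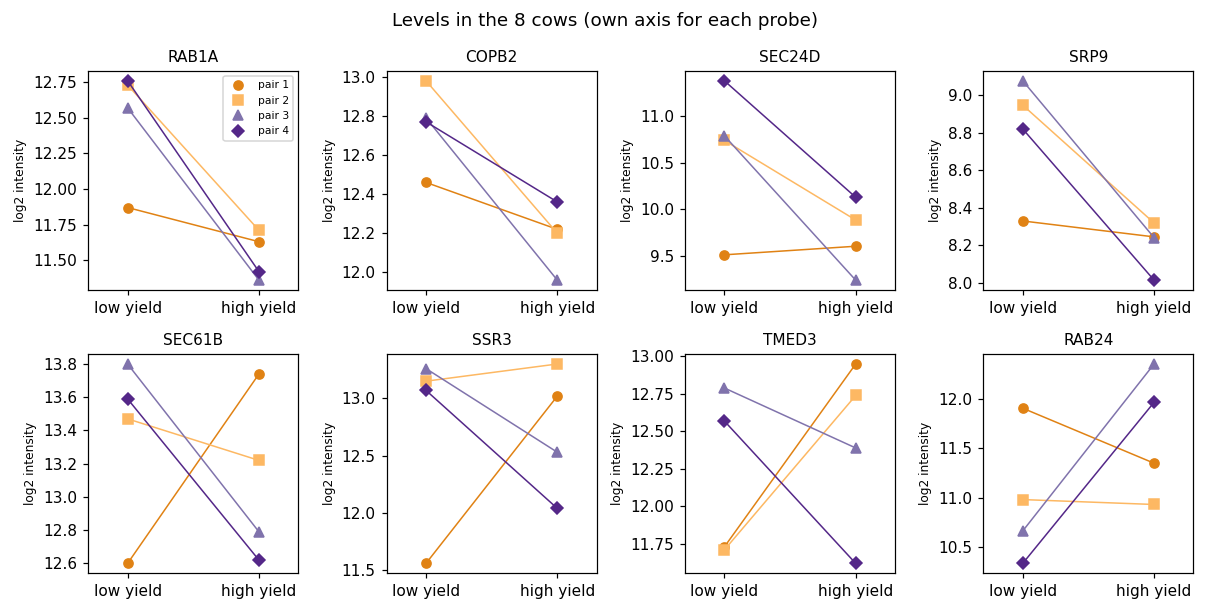
Rebuilt log2 intensity (vertical axis, a separate scale for each probe) of 8 genes in the low-yield and high-yield cows, with a line joining the cows of a pair. RAB1A, COPB2 and SRP9 were lower in the high-yield cow of each pair, while the line of pair 1 ran the other way from pairs 3 and 4 for SEC61B and SSR3, and RAB24 was higher in the high-yield cows of pairs 3 and 4 alone.

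TMED genes encode cargo receptors of early secretory vesicles, and their median was -0.03. TMED10, one of the family's core members, had ratios of -0.17, -0.96, -0.0041 and -0.39 (mean -0.38 ± 0.42), with high-yield levels of 12.95 to 13.48 and low-yield levels of 13.48 to 13.90. One of its 5 kept probes had 1.67 in pair 1, where the others ran from -0.34 to -0.04, and one of the others was placed on chromosome 5 while the rest were on chromosome 10. TMED7 had 0.20, -0.48, -1.05 and -0.86. TMED3 had 1.22 and 1.02 in lactation II and -0.41 and -0.95 in lactation IV, and its other probes had the same signs in these 4 pairs, while their means lay below 0 and that of the brightest probe was 0.22. TMED9 stayed within 0.29 of 0, at 0.29, 0.23, 0.08 and -0.11.

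TRAPP tethers catch incoming vesicles, and 5 of the 10 tested genes had a mean below 0. TRAPPC8 was below 0 in 4 of 4 pairs, at -0.22, -0.39, -0.52 and -0.31 (mean -0.36 ± 0.13, limma, adjusted p = 0.774). TRAPPC9 was above 0 in 4 of 4 pairs, at 1.01, 0.09, 0.40 and 0.16, and 4 of 4 high-yield cows lay above the low-yield cows (11.20 to 11.71 against 10.70 to 11.13). It was the 1 member with that order, against 1.04% of all gene names. The opposite order, with the high-yield cows all below, was found for 8 members (6.84%, against 2.03%): SEC61A2, SRP9, RAB14, RAB1A, RAB5A, COPB2, TMED10 and SEC23IP, with TMED10 separated only past the second decimal.

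Among the RAB GTPases, RAB1A had the mean farthest below 0. RAB1A brings COPII vesicles to the Golgi. It stood at 11.63, 11.71, 11.36 and 11.42 in the high-yield cows and at 11.87, 12.73, 12.57 and 12.76 in the low-yield cows, with no overlap. The ratios were -0.23, -1.01, -1.21 and -1.34, with a mean of -0.95 ± 0.50, 1.93-fold lower in high-yield cows (limma, adjusted p = 0.774), and without pair 1 the mean was -1.19 ± 0.16 (adjusted p = 0.406). The 3 probes gave means of -0.95, -0.92 and -0.95. The 2 arrays of pair 1 disagreed, at 0.46 with the high-yield cow in Cy5 and -0.92 with it in Cy3, whereas the 6 arrays of the other pairs ran from -1.38 to -0.71. RAB1B, a close copy in sequence, had -0.35, 0.05, 0.96 and 0.07, and cross-hybridisation between the copies was not tested.

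Several other RABs of the Golgi and of recycling endosomes gave no single picture. RAB2A, of transport between Golgi and ER, had 0.82, -0.22, 0.03 and -0.75, and the probe of the guanine-binding stretch printed above had 0.41, -0.20, -1.12 and -0.92. RAB6A, of the Golgi, was dim, being above background in 14 of 16 channels, and 2 of its 3 probes had a mean on the other side of 0. RAB10, of transport from the Golgi to the basolateral side, had 0.54, -0.14, -1.23 and -0.37. RAB11A, of recycling endosomes, had 1.15, -0.55, -1.09 and -0.62, whereas RAB11B had 0.35, 0.05, -0.32 and 0.09.

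Endosomal RABs included several with 1 sign in all pairs. RAB5A, of early endosomes, had ratios of -0.56, -0.23, -0.73 and -0.14, with levels of 10.78 to 11.04 in high-yield cows and 11.15 to 11.51 in low-yield cows. Its mean was -0.42 ± 0.28 (limma, adjusted p = 0.774). RAB14, of traffic between Golgi and endosomes, had -0.53, -0.56, -0.68 and -0.18, though 1 of its 4 probes had a mean of the other sign. RAB7A, of late endosomes, had -0.01, -0.20, -0.25 and -0.34.

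Of the 54 RAB names, 8 had ratios below 0 in 4 of 4 pairs (14.8%, against 8.19% of all gene names). Ratios above 0 in 4 of 4 pairs were found for 5 (9.26%, against 9.34%), and some of these 5 follow. RAB13, of tight junctions, had 0.24, 0.30, 0.55 and 0.42 (mean 0.38 ± 0.14), and all 4 probes gave a mean above 0. RAB39B had 0.30, 0.94, 0.31 and 0.31 (mean 0.46 ± 0.32), so that pair 2 stood apart. RAB11FIP1, which links RAB11 to its cargo, stood at 7.58, 7.89, 8.05 and 7.40 in the high-yield cows and at 6.86, 7.48, 7.06 and 6.43 in the low-yield cows. Its ratios of 0.71, 0.41, 0.99 and 0.96 gave a mean of 0.77 ± 0.27, 1.70-fold higher (limma, adjusted p = 0.774), on 1 probe, and the groups overlapped.

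RABs known from exocytosis had no common sign. RAB8A, of transport to the cell surface, had 0.37, 0.08, 0.15 and -0.02. RAB27B had -0.67, 0.23, -0.06 and -0.04, and RAB3D, above background in 14 of 16 channels, had -0.01, -0.07, 0.34 and 0.13. RAB26 and RAB34 stood out in pair 1 alone and were chosen for mention after their values were seen. RAB26, known from secretory granules, had 3.72, 0.01, 0.12 and -1.004, with low-yield levels of 7.36 in pair 1 and 10.25 to 11.02 in pairs 2 to 4. RAB34 had -2.13, 0.44, 0.82 and 0.11, with low-yield levels of 12.88 in pair 1 and 10.43 to 11.69 in pairs 2 to 4.

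The other names beginning with SEC were mixed. SEC23IP, which binds the COPII subunit SEC23, stood at 10.46, 10.30, 10.19 and 10.30 in the high-yield cows and at 10.58, 11.06, 11.06 and 10.48 in the low-yield cows, with no overlap. Its mean ratio was -0.48 ± 0.39. The fucosyltransferase name SEC1 had 1.09, 0.22, 1.55 and 0.07.

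Whether the effect of yield differed between lactations was tested as the mean ratio in lactation IV minus that in lactation II. With limma, 0 of 117 members passed an adjusted p of 0.05, as did 0% of all gene names, and the lowest adjusted p of a member was 0.654. Without adjustment, 11 members were lower in lactation IV and 2 higher (9.4% and 1.71%, against 3.94% and 3.39% of all gene names). The 11 were SEC61B, SEC61G, SSR3, SRP14, SRP54, RAB11FIP4, RAB4A, COPE, SEC22B, SEC23B and TMED3, and the 2 were RAB24 and RAB7B. Fits of this difference that left out a pair held 1 lactation with 1 pair alone, so only medians from them are given. The median difference was -0.88 for ER entry, -0.35 for coats and tethers and -0.04 for RABs, against 0.05 for all gene names. Differences lay below 0 for 13 of 18 ER entry genes, 28 of 40 coat and tether genes and 28 of 54 RAB genes, against 46.1% of all gene names. Without pair 1 the medians were -0.41, -0.17 and -0.07. Without pair 2 they were -1.34, -0.50 and 0.0045, so the ER entry and coat differences were smaller without pair 1 and larger without pair 2.

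Some members had ratios of one sign in both pairs of lactation II and of the other in both pairs of lactation IV. RAB24, an unusual RAB linked to autophagy, stood at 11.35, 10.93, 12.36 and 11.97 in the high-yield cows and at 11.91, 10.98, 10.66 and 10.33 in the low-yield cows, and the groups overlapped. Its ratios were -0.56 and -0.05 in lactation II and 1.70 and 1.65 in lactation IV, a difference of 1.98 ± 0.32 (SE, limma, adjusted p = 0.654) on 1 probe. RAB7B, of late endosomes, had -0.24 and -0.27 against 0.78 and 0.75, a difference of 1.02. TMED3 had a difference of -1.80 ± 0.34 (SE, limma, adjusted p = 0.654), and SSR3 of -1.68. Ratios above 0 in both pairs of lactation II and below 0 in both of lactation IV were found for 9 members (7.69%, against 7.82% of all gene names), and the reverse for 5 (4.27%, against 7.22%).

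**Figure D4:**
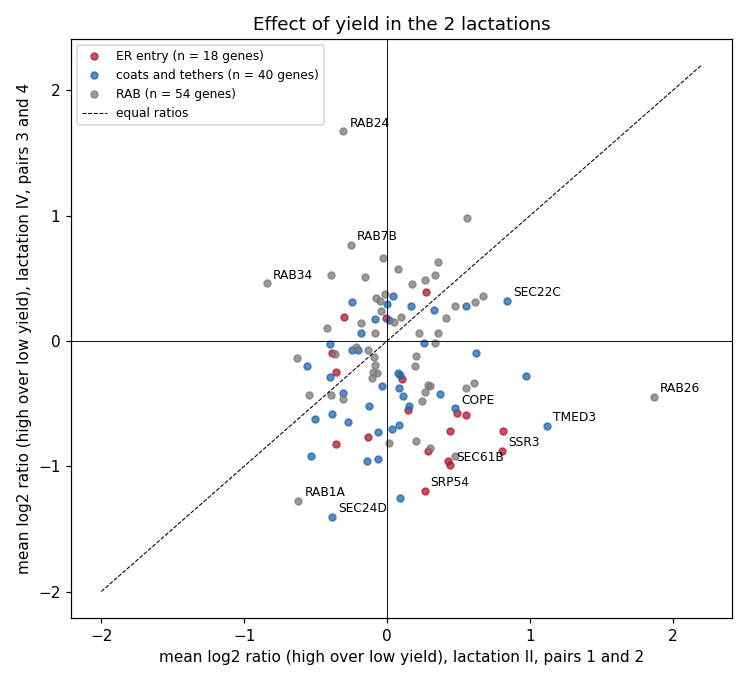
Mean log2 ratio of the high-yield to the low-yield cow in lactation II (pairs 1 and 2, horizontal axis) and lactation IV (pairs 3 and 4, vertical axis) for each tested gene, coloured by group, with the line of equal ratios dashed. Most ER entry genes lay below that line, RAB24 lay far above it, and RAB1A and SEC24D were below 0 in both lactations.

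Other genes of the route were taken from 7 lists, and in each list 0 genes passed an adjusted p of 0.05. Among partners of the channel and the signal peptidase, 11 of 13 had a mean below 0. SPCS2, a signal peptidase subunit, was the lowest, at -0.38, -0.48, -0.56 and -0.57 (mean -0.50 ± 0.09, limma, adjusted p = 0.774), and BCAP31 was the highest at 0.33 ± 0.80. Among oligosaccharyltransferase genes, which add sugar chains in the ER, 8 of 10 had a mean below 0, from RPN2 at -0.55 ± 0.87 to KRTCAP2 at 0.07 ± 1.06.

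Among genes of ER exit and retrieval, 16 of 23 had a mean below 0, and the list held both extremes in one receptor family. KDELR2, a receptor that returns ER proteins, had 0.28, -0.83, -1.83 and -0.97, whereas KDELR1 had 0.41, 0.63, 0.91 and 0.67 (mean 0.66 ± 0.21, limma, adjusted p = 0.774). Among regulators of COPI, 7 of 9 had a mean below 0, and ARF1, which recruits the coat, had -0.61, -0.59, -0.66 and -0.40 (mean -0.56 ± 0.12), at 13.82 to 14.31 in high-yield and 14.48 to 14.92 in low-yield cows. ARF1 was chosen for mention after its values were seen. ARF4, a GTPase of the same family, had -0.02, -0.98, -1.26 and -1.13, while ARF5, its close relative, was the highest at 0.61 ± 0.87. Among Golgi tethers and SNAREs, 20 of 30 had a mean below 0, from USO1, which tethers vesicles together with RAB1, at -0.68 ± 0.45 to COG7 at 0.56 ± 0.89.

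The exocytosis and RAB cycle lists were more evenly divided. Among exocytosis genes 13 of 25 had a mean below 0, with EXOC8 the lowest at -0.42 ± 0.26. Among genes of the RAB cycle 7 of 15 did, from RABGAP1L at -0.82 ± 0.90 to RABEPK at 0.38 ± 0.42. The lists of the early route thus had more means below 0, and those of the late route about as many on each side, as for ER entry and coats against RABs. Without pair 1, means below 0 numbered 12 of 13, 9 of 10, 17 of 23, 8 of 9, 21 of 30, 15 of 25 and 9 of 15 in the order of the lists above. No difference between the lists was tested.

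Markers of other cells were read beside these values. For B and plasma cells, themselves rich in ER, the summed level was 13.04 to 13.31 in high-yield and 12.94 to 13.43 in low-yield cows, which overlapped. Of 14 T and NK cell genes, 13 had a mean below 0, with summed levels of 12.74 to 13.92 and 12.86 to 14.11. This rested on pair 1, where 13 of 14 lay below 0 and the low-yield cow held the 14.11, and without it 6 of 14 means lay below 0. Red cell markers had 9.84 to 12.68 in high-yield and 8.99 to 9.86 in low-yield cows. The ranges of the other marker lists overlapped between the yields, that of luminal epithelium through the low-yield cow of pair 1 alone. The part of cell composition in the members' ratios was not tested.

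Several names were measured by more than 1 probe, which gave a check within the arrays. Of 67 members with more than 1 kept probe, 13 had at least 1 probe whose mean had the opposite sign, among them SEC61A1, SEC11C, RAB14, RAB6A, COPZ1 and TMED3. Across the 117 members, the ratios of the 2 dye-swapped arrays of a pair had the same sign for 84, 70, 92 and 66 members in pairs 1 to 4, with correlations across genes of 0.688, 0.293, 0.601 and 0.373. Genes are not independent replicates. The SD of the ratios over all probes was also smaller in pairs 2 and 4 (0.424 to 0.557) than in pairs 1 and 3 (0.666 to 0.839), and its part in the lower correlations was not tested.

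**Figure D5:**
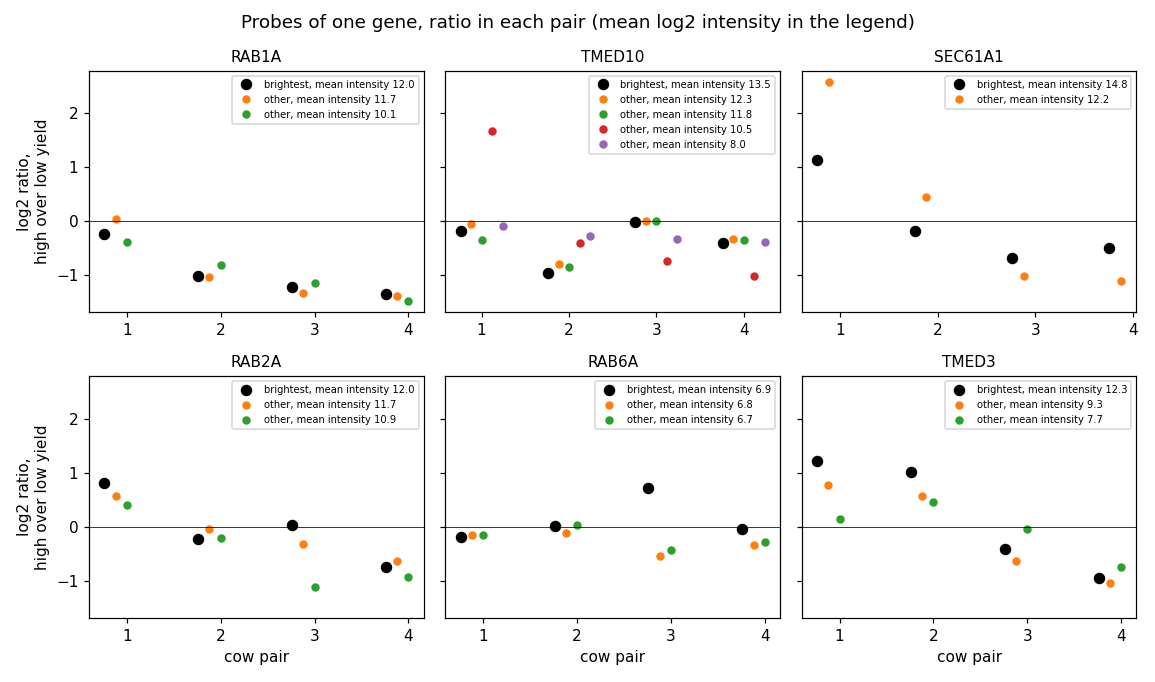
Log2 ratio of the high-yield to the low-yield cow (vertical axis) in each pair (horizontal axis) for each kept probe of 6 genes, with the brightest probe in black and mean log2 intensities in the keys. The 3 RAB1A probes lay together, with means of -0.95, -0.92 and -0.95, whereas 1 TMED10 probe stood at 1.67 in pair 1 and the SEC61A1 probes differed in size, at 1.15 and 2.58.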

How the data were processed

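Agilent arrays of design 023647 compared high-yield and low-yield cows, with 1000 ng of RNA labelled, per the labels. The deposited scanner files hold intensity values from Feature Extraction (version 10.10.1.1 in the file headers): the mean of each spot, the median of its local background, and processed signals. Their log10 ratio of red over green processed signal, per the file headers, was used to check directions. The authors also deposited normalised values, which the comparison with the scanner files showed to be log2 ratios centred near 0 (column medians -0.0352 to 0.0232). How these were made is not given in the sources used here, and 2 columns were strongly shrunken (slopes of 0.101 and 0.0899 on the log10 ratios of the scanner files, taken to base 2). The deposited values served only as an alternative.

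Background was corrected with normexp (limma 3.58.1, R 4.3.3), an offset of 50 and noise estimated from 153 negative controls per array, followed by loess within each array in which controls had no weight. Between 6 and 118 outlier spots per array were left out, and 0 were saturated. Spots of a probe were averaged, ratios were given 1 direction, and the arrays of a pair were averaged. Cow levels were rebuilt after the mean intensities of all arrays had been brought to 1 distribution, and are not measured intensities. Per channel, 22027 to 42482 of the 43653 probes stood well above background, and the number of arrays limits the precision. Gene names are those of the files: 125 members are current symbols and 3 older ones (COPG, RAB39 and RAB7L1). Tables and plots were made with Python 3.11.15.

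The pair was the replicate (n = 4). limma's lmFit and eBayes with Benjamini-Hochberg adjustment ran over 18116 gene names, two-sided, in a script tested on simulated data. The members and lists were chosen with earlier results of these data known. Named were, in each role, the members of highest and lowest mean among those with 1 sign in 4 pairs, the brightest member, the largest opposite differences between lactations, a list of members with textbook roles, and the extremes of each pathway list (1 of them is not reported here); members named outside this rule were chosen after their values were seen. Alternatives were the background correction, offset, normalisation, filter, probe choice, dye orientation, slide as a term, unpaired cows, the authors' values and leaving out each pair; counts of members with 1 sign in every pair, medians of the lactation difference and the fit without the low-yield cow of pair 1 were chosen after seeing the data.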

Additional observations from a re-analysis of the deposited data

Results flagged for a closer look

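In 153 groups of 4 values, 1 cow or pair lay far from the others in 8, and chance flags about 1 in 20 groups. The low-yield cow of pair 1 was the lowest of the low-yield cows for COPE (11.96), RAB2A (11.12), SEC22B (7.76), SEC61A1 (14.16) and SSR3 (11.56). The high-yield cow of pair 1 was the highest for COPB1, at 11.25. Among ratios, RAB12 stood apart in pair 1 at -0.81 and RAB39B in pair 2 at 0.94.

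For 9 named members the ratios of both pairs of one lactation lay on the other side of 0 from both of the other. The difference, lactation IV minus II, was -1.01 for COPE, -0.55 for COPZ1, -0.95 for RAB11FIP4, -1.68 for SSR3 and -1.80 for TMED3. It was 0.52 for RAB12, 1.98 for RAB24, 0.28 for RAB3D and 1.02 for RAB7B. These opposite signs were not tested as such, and in limma's test of the difference none of the 9 passed an adjusted p of 0.05.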

How the results depend on the processing

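No member was called for yield or for the difference between lactations by limma under any alternative run. With median centring, 26 members were below 0 and 6 above 0 in every pair, the coat and tether median was -0.43, and the RAB medians were -0.15 for yield and 0.14 for the lactation difference. The RAB yield median was -0.010 with all channels above background, -0.068 with the high-yield cow in Cy5 and 0.18 with it in Cy3. The RAB lactation difference was -0.15 with the scanner's processed signals and -0.16 with all channels above background. The RAB median thus has no settled sign, and the cause was not tested. SEC31A reversed to 0.014 with the high-yield cow in Cy3. Leaving out 1 pair at a time gave 19 to 47 members below 0 in every remaining pair (47 without pair 1) and 15 to 18 above 0, which fewer pairs make easier. The coat and tether lactation difference then ran from -0.50 to -0.17, the ER entry median from -0.49 to -0.026 and its lactation difference from -1.34 to -0.41. Of 947 values of named members under alternatives, 916 stayed within the spread between pairs, 30 moved further and 1, with 1 sign in every pair, reversed. In all, 63 of these values changed sign, in 25 members. The comparison between lactations could not be paired, because the lactation groups share no replicate numbers. The high-yield and low-yield cows of a pair already share an array. The 13 members not well above background in some of the 16 channels have ratios that rest in part on signals near background.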
